A study of Mus musculus with 10 samples.

Results

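Matricellular glycoproteins are secreted into the extracellular matrix and act there on cells and on other matrix molecules. The 6 genes described here are Spp1 (osteopontin), Postn (periostin), Tnc (tenascin C), Sparc (secreted protein acidic and rich in cysteine, also called osteonectin), Fn1 (fibronectin) and Cthrc1 (collagen triple helix repeat containing 1). They were taken by gene symbol from the array, where each has 1 probe, so that 6 of 26423 probes and 6 of 19942 gene symbols are covered. They were chosen with their TAB to sham ratios known. Those ratios are therefore given as a description, without a p-value.

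Messenger RNA of the heart's left ventricle was measured in male C57BL/6J mice, which were 8 weeks old and weighed 20-25 g at surgery. Transverse aortic banding (TAB) narrows the aorta and loads the left ventricle with pressure, and sham mice were operated on without the band. A single sample stands for each operation at each of 5 time points after surgery (3, 5, 7, 14 and 28 days), which makes 10 samples. No transgene, knockout or drug was part of either group, and how many mice went into a sample is not stated in the sources used here. One label of the day 14 TAB sample gives 15 days, whereas its title gives 14. The day is the only replicate of an operation, so p-values below measure the spread between samples of different days.

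In the healthy adult heart these proteins are scarce, apart from those that form part of the resting matrix. After injury or overload they are made mainly by activated fibroblasts, and osteopontin and fibronectin also by macrophages. Periostin and SPARC bind collagen and take part in building its fibrils, fibronectin carries integrin binding sites, tenascin C loosens cell adhesion, osteopontin is also a cytokine, and CTHRC1 is linked to collagen-producing fibroblasts in healing tissue.

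Raw median intensity was 34 to 57 per array, and 40.2% to 47.3% of the spots of an array were flagged as not found. A gene was tested if its probe stayed at 1 or more after scaling in every sample, which left 16113 genes. Of the 6 genes, 5 passed. Cthrc1 did not, because its sham probe was below 1, and its values come from a normalization in which such values were set to 1. The labelled tissue was borne out by its markers, since all 10 cardiomyocyte markers were found on all 10 arrays.

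The sequence before the transcription start was looked up because the genes were high in TAB samples together. RefSeq (GRCm38.p6) start windows were given for 4 of the 6 genes, with 7 windows between them, and the following 4 are shown as the 250 bases before a start, 5′ to 3′ on the gene's strand. They lie at chr5:104434861-104435110 (plus strand, Spp1), chr3:54360857-54361106 (plus strand, Postn), chr4:64046937-64047186 (minus strand, Tnc) and chr11:55420081-55420330 (minus strand, Sparc). Capitals mark matches to the motif letters searched.
Spp1: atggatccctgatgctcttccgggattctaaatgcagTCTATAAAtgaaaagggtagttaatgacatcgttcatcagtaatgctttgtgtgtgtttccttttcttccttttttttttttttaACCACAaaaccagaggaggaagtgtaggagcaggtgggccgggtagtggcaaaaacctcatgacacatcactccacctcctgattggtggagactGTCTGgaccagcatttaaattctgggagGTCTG
Postn: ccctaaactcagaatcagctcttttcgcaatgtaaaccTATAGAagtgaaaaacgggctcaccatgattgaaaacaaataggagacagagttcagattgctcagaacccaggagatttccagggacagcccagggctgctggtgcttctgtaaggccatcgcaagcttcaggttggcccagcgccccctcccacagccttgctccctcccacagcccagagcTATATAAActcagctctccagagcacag
Tnc: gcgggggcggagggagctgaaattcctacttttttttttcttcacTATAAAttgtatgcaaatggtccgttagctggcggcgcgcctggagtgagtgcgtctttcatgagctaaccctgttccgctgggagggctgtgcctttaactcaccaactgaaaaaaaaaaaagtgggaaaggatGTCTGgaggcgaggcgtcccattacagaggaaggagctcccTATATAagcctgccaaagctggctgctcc
Sparc: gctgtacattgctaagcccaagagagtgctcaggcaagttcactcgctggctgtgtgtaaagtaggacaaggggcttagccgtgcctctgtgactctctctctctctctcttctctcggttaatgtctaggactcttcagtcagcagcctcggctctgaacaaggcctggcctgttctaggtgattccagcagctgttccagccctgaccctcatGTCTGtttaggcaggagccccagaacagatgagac

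Letters of 7 motifs were searched on both strands in the 7 windows. TATANA, the TATA box letters, lay 28 and 26 bases before the Postn start in overlapping matches and 29 bases before the Tnc start, and further off at 212 bases in the Postn and 205 bases in the Tnc window. In the Spp1 window TATANA matched 213 bases before the start on the opposite strand and 211 bases before it, again overlapping, and the Sparc window held none. Over all 32851 windows, 22.6% held TATANA. The SMAD letters GTCTG matched 33 and 5 bases before the Spp1 start, 70 before that of Tnc and 35 before that of Sparc, all in the windows shown, and 42.2% of all windows hold them. The RUNX letters TGTGGT matched once, 128 bases before the Spp1 start on the opposite strand (14.0% of all windows). TGANTCA (AP-1, 6.75% of all windows), GGAATG (TEAD, 12.6%), TATTTA (the MEF2 core, 12.7%) and the CArG box (1.47%) had no match in the 7 windows. In the 3 windows not shown, GTCTG matched 191 bases before the other Postn start and 41 before the other Spp1 start, both on the opposite strand. TATANA matched 240 bases before that Spp1 start, on the opposite strand, and 126 before the other Tnc start. The Tnc windows overlap, and this last match is the same site as that at 205 bases in the Tnc window shown. These are matches of letters and not measured binding.

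All values below are normalized intensities, that is, linear probe brightness after scaling and quantile normalization, and are compared only within a probe. The whole set was high in TAB samples. For each of the 6 genes, every TAB value lay above every sham value, as was the case for 9.99% of all tested genes. The choice of genes used these ratios, so nothing is read from that count.

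Postn encodes a collagen-binding protein that is low in resting cardiac fibroblasts and serves as a marker of their activated state. Its TAB intensities, in the order of days 3, 5, 7, 14 and 28, were 14363, 17226, 16119, 13038 and 7215. In sham samples it was 1262, 1213, 1190, 1259 and 1367 in the same order. The deposited detection p-value was at most 4.3e-05 on the sham arrays, so the probe was clearly detected without banding. The groups were far apart, with a log2 gap of 2.40 between the lowest TAB and the highest sham value, and the sham samples barely differed, with an SD of 0.077 (log2, n = 5). The mean log2 ratio was 3.37 ± 0.57 (SD over 5 days), a 10.4-fold difference. TAB levels of days 5 and 7 differed by 0.096 (log2), within the sham range of 0.20, whereas the rise from day 3 to day 5 (0.26) and the steps down from day 7 to day 14 (0.31) and from day 14 to day 28 (0.85) exceeded it.

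Spp1 encodes osteopontin, an integrin and CD44 ligand. Its TAB intensity was 3065, 3579, 2837, 565 and 305 on days 3, 5, 7, 14 and 28. In sham samples it was 75.6, 114, 98.2, 102 and 83.6. TAB samples of days 3, 5 and 7 were high and close to one another, spanning 0.34 (log2), less than the sham range of 0.59, and the day 14 sample was 5.02-fold below that of day 7. The log2 ratios were 5.34, 4.97, 4.85, 2.46 and 1.87 in the order of days, with a mean of 3.90 ± 1.61 (SD, n = 5 days). No sham array had a deposited detection p-value under 0.05 for this probe, so the sham level lies near the array's limit, although the spot was found on all 5.

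Tnc encodes tenascin C, a large oligomeric protein of wound and developing matrix. Its TAB intensity was 1783, 2590, 959, 149 and 66.9 on days 3, 5, 7, 14 and 28. In sham samples it was 42.7, 17.6, 43.9, 22.5 and 45.6, and the spot was not found on the sham array of day 5. The TAB samples of days 3 to 7 stood far above all sham samples, and the day 28 TAB sample stood only 0.55 (log2) above the highest sham value, less than the sham range of 1.37. The deposited detection p-value was under 0.05 on 0 of 5 sham arrays and on 3 of 5 TAB arrays, with 0.496 on day 14 and 0.833 on day 28. Its log2 ratios of 5.38, 7.20, 4.45, 2.73 and 0.55 made it the most changeable of the 5 tested genes over time, and 7.68% of the peak log2 ratio was left on day 28. The mean log2 ratio was 4.06 ± 2.54 (SD, n = 5 days), a 16.7-fold difference that was 9.70-fold without day 5 and 30.7-fold without day 28. With 50 added to every intensity it was 2.95 (7.74-fold), and it was 3.88 when intensities under the 1st percentile of found spots were raised to that percentile. The 7.20 of day 5 rests on a sham spot that was not found and depends on the floor of the array.

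Fn1 encodes fibronectin, the fibrillar protein on which other matrix proteins assemble. Its TAB intensity was 1025, 1995, 1666, 735 and 329 on days 3, 5, 7, 14 and 28. In sham samples it was 132, 143, 126, 159 and 134. The groups did not overlap, and the TAB levels of days 5 and 7 (gap of 0.26, log2) were the only ones of successive days that lay within the sham range of 0.33. The log2 ratios were 2.96, 3.80, 3.72, 2.21 and 1.30, with a mean of 2.80 ± 1.06 (SD, n = 5 days). On 3 of 5 sham arrays its detection p-value was 0.479 to 0.693, so the sham level lies near the array's limit there. Which splice forms the probe reports is not given in the sources used here.

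Sparc encodes a collagen-binding protein that is part of the resting matrix as well. Its TAB intensity was 7124, 10583, 10508, 10969 and 6618 on days 3, 5, 7, 14 and 28. In sham samples it was 3185, 3091, 3005, 2576 and 2468. The groups did not overlap, with a log2 gap of 1.06 between the lowest TAB and the highest sham value. Its mean ratio over the days was the smallest of the set and varied least between days, although on day 28 it was above those of Fn1 and Tnc, with log2 values of 1.16, 1.78, 1.81, 2.09 and 1.42 and a mean of 1.65 ± 0.36 (SD, n = 5 days), a 3.14-fold difference. TAB levels of days 5, 7 and 14 spanned 0.062 (log2), less than the sham range of 0.37, whereas the steps from day 3 to day 5 (0.57) and from day 14 to day 28 (0.73) exceeded it.

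Cthrc1 encodes a secreted protein found in healing arteries and in collagen-producing fibroblasts. Its TAB intensity was 2249, 3696, 3025, 1141 and 169 on days 3, 5, 7, 14 and 28. This spot was found on all 5 TAB arrays and on 0 of 5 sham arrays, where raw intensity was 6, 1, 4, -2 and 4. The sham level therefore has no measured value, and the fold was taken against the higher of the lowest found spot of the array and the probe's own value. TAB was at least 370-fold higher at 3 days, 571-fold at 5 days, 211-fold at 7 days, 191-fold at 14 days and 20.5-fold at 28 days, and at least 177-fold higher on average (a log2 of 7.47), a bound that was 304-fold without day 28 and 132-fold without day 5. The TAB spot of day 28 had a detection p-value of 0.366, so the bound of that day rests on a level near the array's limit on both sides. These bounds depend on the floor: with the 1st percentile of found spots in its place, a choice made after seeing the data, the average was at least 56.0-fold, and with 50 added to every intensity it was at least 25.3-fold.

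**Figure D1:**
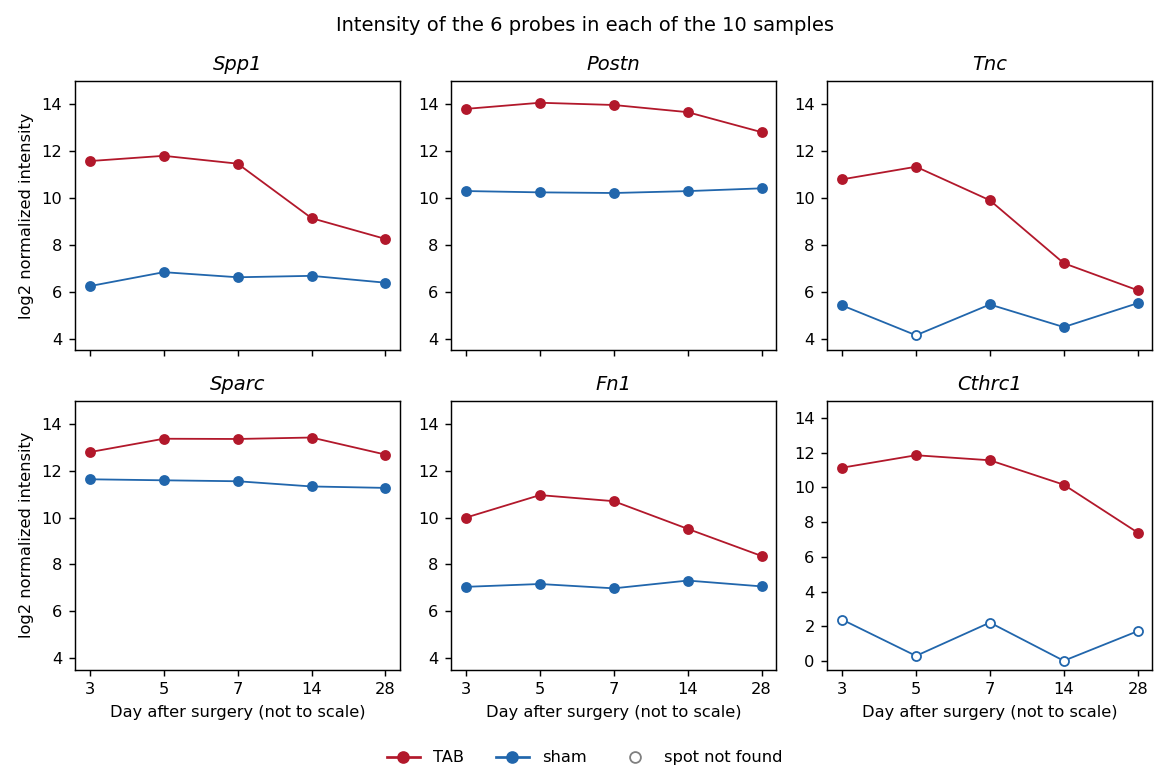
Log2 normalized intensity of the 6 probes (vertical axis, with a lower start for Cthrc1) in each of the 10 samples by day after surgery, TAB in red and sham in blue, with open points for spots that were not found. Every TAB point lies above every sham point of its gene, and the TAB lines of Spp1, Tnc, Fn1 and Cthrc1 come down by day 28 while those of Postn and Sparc stay closer to their peaks.

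TAB intensity was highest on day 5 for 5 of the 6 genes and on day 14 for Sparc. The sham range of Cthrc1 was not measured. For each of the 5 tested genes, the gap to the second highest TAB day lay within the sham range. These gaps (log2) were 0.22 for Spp1, 0.096 for Postn, 0.54 for Tnc, 0.26 for Fn1 and 0.05 for Sparc. With 1 sample per day, the day of the peak is therefore not resolved. From that peak to day 28, TAB intensity came down 38.7-fold for Tnc, 21.9-fold for Cthrc1, 11.7-fold for Spp1, 6.06-fold for Fn1, 2.39-fold for Postn and 1.66-fold for Sparc. The day 28 spots of Tnc, Cthrc1 and Spp1 were found but had detection p-values of 0.833, 0.366 and 0.0521, so their folds lean on levels near the array's limit and their order is not resolved. Of the peak log2 ratio, 68.1% was left on day 28 for Sparc, 62.7% for Postn, 35.0% for Spp1 and 34.2% for Fn1. For Tnc it was 7.68%, as given above, and for Cthrc1 both ratios are bounds, 9.16 on day 5 and 4.36 on day 28 (log2).

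By the study's rule, a gene counts as changed at a time point if its log2 ratio is further from 0 than 2 SD of all the ratios there, which has no replicate behind it. That threshold was 1.78, 1.93, 1.75, 1.48 and 1.38 on days 3, 5, 7, 14 and 28. On day 3, 5 of the 6 genes were above it (3.1% of all tested genes), on day 5 also 5 (4.09%), on day 7 all 6 (4.08%), on day 14 all 6 (3.39%) and on day 28, 4 (3.41%). Those that were not above it were Sparc on days 3 and 5, and Tnc and Fn1 on day 28. Spp1, Postn and Cthrc1 were above it on all 5 days, as were 56 of the tested genes (0.348%). Since the genes were chosen on this contrast, nothing is read from these counts.

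**Figure D2:**
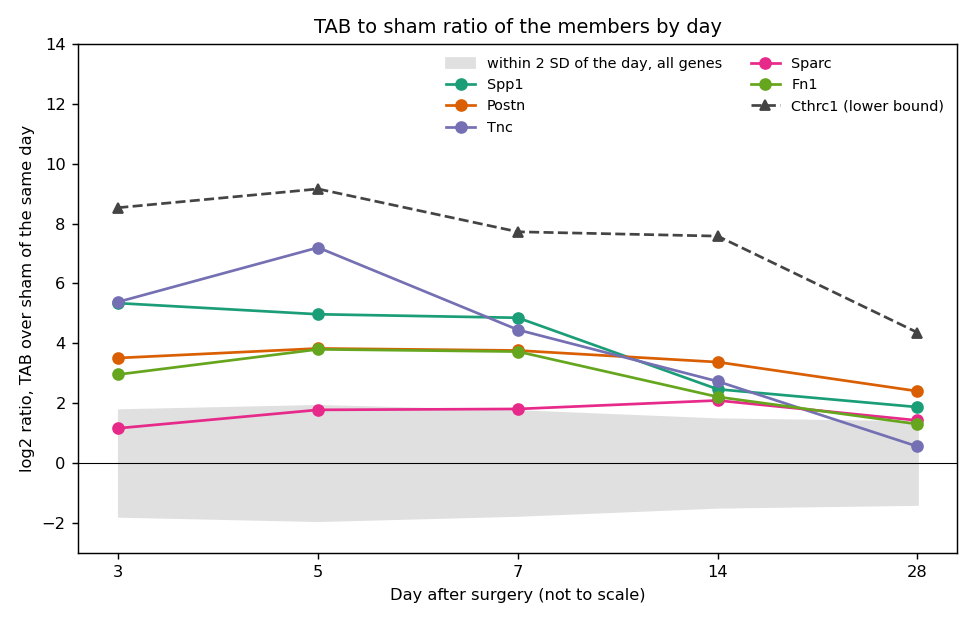
Log2 ratio of TAB over the sham sample of the same day (vertical axis) by day after surgery (horizontal axis, not to scale) for the 6 genes, with Cthrc1 as a lower bound (triangles) and the grey band spanning 2 SD of all gene ratios on either side of 0. Sparc lies inside the band on days 3 and 5, and Tnc and Fn1 lie inside it on day 28.

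Whether the TAB to sham ratio differed between the first week (days 3, 5 and 7) and later (days 14 and 28) was tested with limma over all 16113 genes, with day as a block. The weights of this contrast are orthogonal to those of the average ratio. It is still built from the same ratios, which were known when the genes were chosen. For these genes its p-values are therefore a description and not independent of that choice. For Spp1 the early log2 ratio exceeded the late one by 2.89 ± 0.29 (SE, limma adjusted p = 0.191), with means of 5.05 and 2.17. The differences were 4.04 ± 1.03 for Tnc (SE, limma adjusted p = 0.399), 1.74 ± 0.41 for Fn1 (SE, limma adjusted p = 0.394), 0.81 ± 0.35 for Postn (SE, limma adjusted p = 0.476) and -0.18 ± 0.34 for Sparc (SE, limma adjusted p = 0.851). Without day 28 the difference was 2.95 for Tnc and 0.33 for Postn, and without day 14 it was 5.12 and 1.30. The sign for Sparc was not stable, with 0.034 without day 3 and 0.16 without day 14. No gene of the array passed (0%), while 1766 had an unadjusted p under 0.05. Spp1 passed with 50 added to every intensity (limma adjusted p = 0.0227) and with the lowest tertile of genes by intensity left out (limma adjusted p = 0.0335), and under none of the others run. Cthrc1 was not tested, having no measured sham level.

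In sham samples alone, none of the 5 tested genes passed the same comparison of early with late samples. Between the first week and the later time points the log2 sham intensity differed by 0.03 for Spp1, -0.10 for Postn, 0.003 for Tnc, 0.29 for Sparc and -0.12 for Fn1 (early minus late), with limma adjusted p-values of 0.88 to 1.00. The differences of Spp1 and Tnc changed sign when single days were left out, and that of Tnc also under median scaling and under normalization within each operation. Over all genes 0% passed, while 945 genes had an unadjusted p under 0.05.

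**Figure D3:**
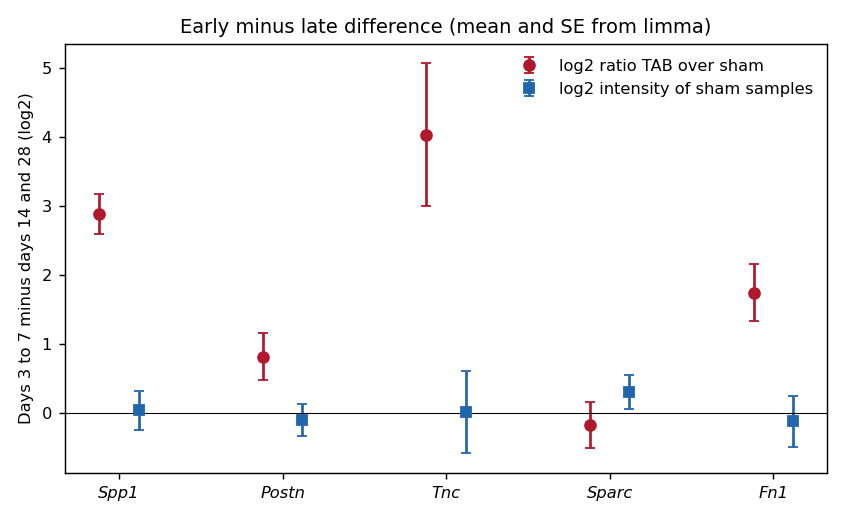
Difference between days 3 to 7 and days 14 and 28 (log2, vertical axis) for the 5 tested genes, with the TAB over sham ratio as red circles and sham intensity as blue squares, and bars of 1 SE from limma. The ratio of Spp1 is 2.89 higher early and that of Tnc 4.04 higher with a wider bar, while the sham differences lie between -0.12 and 0.29.

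The cell types that make these proteins were also read from marker lists. These lists and those below were chosen with earlier results of these data known. In bulk tissue, fewer or more cells of a type cannot be told apart from less or more RNA per cell. Of 11 tested macrophage markers, 10 rose in TAB over the days (limma adjusted p at most 0.0455), against 9.19% of all genes that were higher and 7.87% that were lower, and the list's median log2 ratio was 1.26 against -0.034 for all genes. Trem2 (2.49, a lipid receptor of macrophages), Cd68 (2.01, a lysosomal protein) and C1qb (1.56, a complement subunit) were the highest of those found on all arrays, and Csf1r (0.86) and Mrc1 (0.93) the lowest. The summed marker intensity was 9713 to 23381 in TAB and 5636 to 6943 in sham samples, and no marker of the list was at 0. In TAB it was 19747, 23381, 20485, 12216 and 9713 on days 3, 5, 7, 14 and 28, so that the TAB samples of days 3, 5 and 7 had the highest sums, as they had the highest TAB values of Spp1, Postn, Tnc, Fn1 and Cthrc1. Its part in the values of the 6 genes was not tested.

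Of 7 tested fibroblast markers, 5 rose (9.19% of all genes did). Among those found on all arrays were Col1a2 (log2 ratio 3.49), Thy1 (1.77) and Lum (0.59, lumican, a collagen-binding proteoglycan), whereas Dcn (0.26, decorin) and Tcf21 (0.24, a transcription factor of resting fibroblasts) did not pass. The summed intensity was 22770 to 32050 in TAB and 18932 to 22155 in sham samples. In TAB it was 25179, 29389, 32050, 31813 and 22770 on days 3, 5, 7, 14 and 28, and so highest on days 7 and 14. Of 5 myofibroblast and smooth muscle markers, 2 rose (Tagln and Des), again against 9.19% of all genes. Acta2, the usual myofibroblast marker, had 0.53 (limma adjusted p = 0.284). Its ratio was 0.91, 1.27 and 1.22 on days 3, 5 and 7, and -0.23 and -0.52 on days 14 and 28, and the list's median likewise went from 0.73, 0.53 and 0.70 to -0.15 and -0.52. Of 10 cardiomyocyte markers 1 fell (Atp2a2, the calcium pump of the sarcoplasmic reticulum, -0.49), against 7.87% of all genes, and none rose. Myl2 of this list stood at the top of the scanner's range on 9 of 10 arrays, so its ratio was not measured. None of 7 endothelial markers passed, and of 6 T and B cell markers 1 fell (Cd3e, -0.59), again against 7.87% of all genes. The part of these lists in the values of the 6 genes was not tested.

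**Figure D4:**
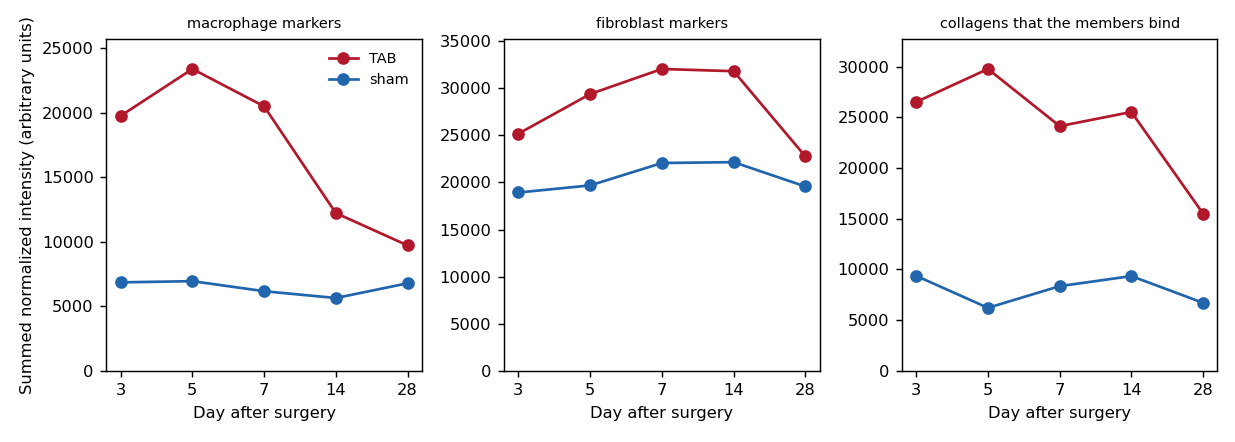
Summed normalized intensity (vertical axes from 0) of macrophage markers, fibroblast markers and collagens in the 10 samples by day after surgery, TAB in red and sham in blue. The macrophage sum in TAB is highest on day 5 (23381) and lowest on day 28 (9713). The fibroblast sum in TAB is highest on day 7 (32050). Every TAB point lies above every sham point in the 3 panels.

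All 10 tested collagens that these proteins bind or assemble with rose in TAB (9.19% of all genes did), with a median log2 ratio of 2.13. The highest of those found on all arrays were Col1a2 (3.49, a chain of collagen I), Col5a2 (3.06, a chain of the collagen V that starts fibrils) and Col6a3 (1.78), and the lowest Col6a1 (1.30) and Col4a2 (1.39, basement membrane). Col1a2 and Col3a1 are also in the fibroblast list. By day the median was 2.38, 3.30, 2.44, 1.72 and 1.32 on days 3, 5, 7, 14 and 28, and all 10 were above 0 on each day. Their summed TAB intensity on these days was 26514.1, 29767.7, 24128.5, 25523.9 and 15500.6, with day 14 above day 7. The calls of this and the other lists depended on single days, while the sizes of the ratios moved less. The collagen median was 2.01 without day 3, 1.82 without day 5 and 2.05 without day 7, and the macrophage median 1.19, 1.18 and 1.20. Without day 3, 1 of the 10 collagens passed, without day 7 none did, and without day 5, 8 did. In the other 11 lists no gene passed without day 3 or without day 7, and without day 5 only 3 fibroblast markers and 1 relative passed. Without day 14, 8 collagens, 6 macrophage markers, 4 fibroblast markers, 1 myofibroblast marker, 4 receptors, 2 focal adhesion genes, 3 enzymes, 3 relatives and 3 inducers passed. With probes below 1 kept and set to 1, 8 collagens, 5 macrophage markers, 3 fibroblast markers, 4 receptors, 2 focal adhesion genes, 1 enzyme, 2 relatives and 1 inducer passed, and no myofibroblast marker did. No cardiomyocyte, endothelial, T or B cell marker passed in either. The count over all genes came down from 2749 to 30 without day 3, 98 without day 5, 22 without day 7 and 947 without day 14.

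Among the receptors, 6 of 15 tested rose (9.19% of all genes did) and none fell, with a median log2 ratio of 0.41. Stab1 (1.17), a scavenger receptor that takes up SPARC, Egfr (0.81), to which tenascin C repeats bind, and Itga9 (0.79), an integrin subunit for tenascin C and osteopontin, were the highest of those found on all arrays, and Itgb6 (-0.58) and Itgb3 (-0.002) the lowest, neither past the test. Itgb5 (0.74) and Itgb1 (0.45) also rose. Cd44, a receptor of osteopontin, passed as well, with its spot found on all 5 TAB arrays and on 0 of 5 sham arrays. Itgav, the subunit shared by most receptors of osteopontin and periostin, had 0.047 (limma adjusted p = 0.79).

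Downstream of these receptors, 4 of 12 focal adhesion genes rose (9.19% of all genes did), with a median log2 ratio of 0.37. Actn1 (1.74, an actin crosslinker), Zyx (0.88) and Tln1 (0.66, limma adjusted p = 0.0611) were the highest, followed by Parva (0.64), and Tns1 (-0.55) and Lims1 (-0.28) the lowest, neither past the test. Ilk, a kinase-like scaffold of integrin tails, rose by 0.54.

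Of 13 tested enzymes that cut or crosslink these proteins, 7 rose (9.19% of all genes did) and none fell, with a median log2 ratio of 0.77. Mmp2 (1.5) and Mmp14 (1.30), matrix metalloproteinases, and Tgm2 (1.07), a transglutaminase that crosslinks fibronectin and osteopontin, were the highest of those found on all arrays. Furin (-0.63, limma adjusted p = 0.0558) and Plau (-0.36, limma adjusted p = 0.155) were the lowest of those found on all arrays. Bmp1 (1.05), a proteinase that trims procollagens, Fam20c (0.78), the kinase that phosphorylates osteopontin, Plat (0.77) and F13a1 (0.60) also rose.

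Most genes related to Postn, Tnc, Sparc or Spp1 did not pass, and the list held no relative of Fn1 or Cthrc1. Of 11 relatives tested, 2 rose and 1 fell, with a median log2 ratio of 0.13. Of all genes, 9.19% were higher and 7.87% lower, so nothing is read from counts this small. Fstl1 (2.31), which shares a domain with SPARC, and Tgfbi (0.95), the closest relative of periostin, rose, and Dspp, a dentin protein of the osteopontin family, fell by 0.78. Smoc2 had 0.32 and Spock2 -0.10, while Sparcl1, the closest relative of SPARC, had 0.045 (limma adjusted p = 0.84). The tenascins Tnxb, Tnn and Tnr had 0.13, 0.13 and -0.35, none past the test.

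Among secreted factors known to induce these genes, 4 of 12 tested rose (9.19% of all genes did) and none fell, with a median log2 ratio of 0.26. Tgfb2 (1.49), Tgfb3 (1.42) and Il11 (0.80) were the highest of those found on all arrays, and Tgfb1 (-0.34, limma adjusted p = 0.102) and Pdgfa (-0.055, limma adjusted p = 0.893) the lowest. Il6 passed too, with its spot found on 3 of 5 TAB arrays and on 0 of 5 sham arrays, so no fold is given.

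**Figure D5:**
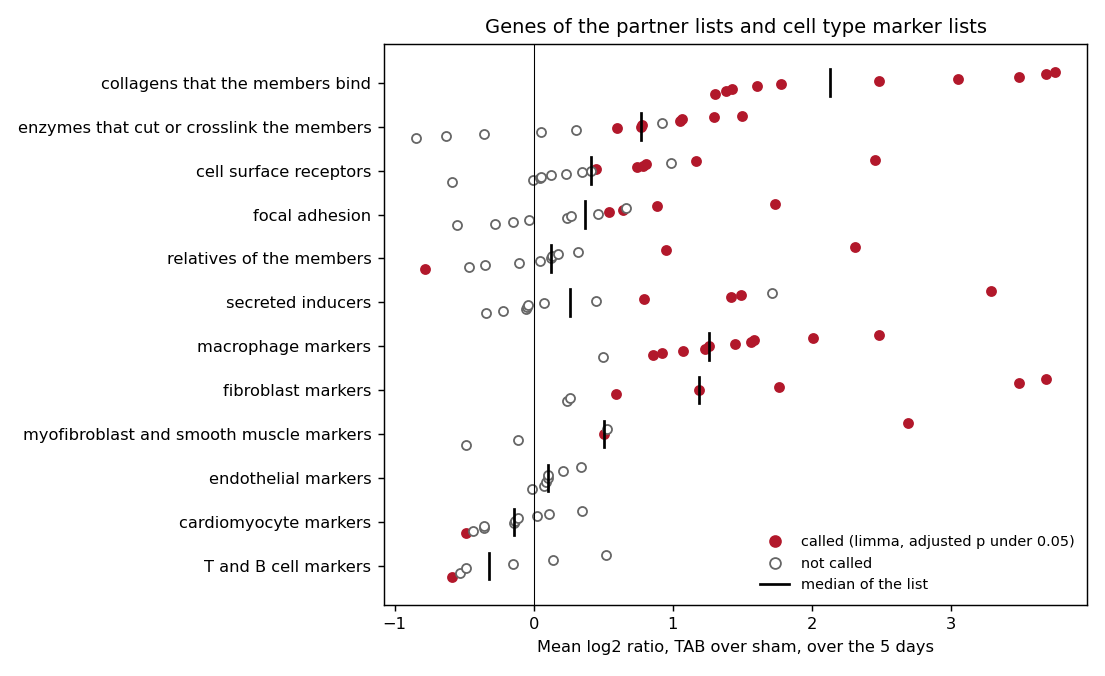
Mean log2 ratio of TAB over sham over the 5 days (horizontal axis) for each tested gene of the 12 lists, filled where limma's adjusted p was under 0.05 and open otherwise, with a black line at the list's median. All 10 collagens are filled and lie above 1, whereas the endothelial list has no filled point.

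The genes whose 5 daily ratios lay closest to those of each gene were found by the root mean square difference (log2) over the 5 days, among 10534 other genes found on all arrays, or 10535 for Tnc, which was not. For Postn these were Mfap5 (0.27), a microfibril protein, Col5a2 (0.38) and Col1a2 (0.41). For Sparc they were Aspn (0.13), asporin, a collagen-binding proteoglycan, Serpinf1 (0.28) and Col8a2 (0.29). For Fn1 they were Ms4a7 (0.31), a membrane protein of macrophages, Cdk5r1 (0.38) and Cd72 (0.41). For Spp1 they were further off, namely Itgb1bp3 (0.68, now named Nmrk2), Col1a2 (0.90) and Loxl2 (0.90), a lysyl oxidase. For Tnc they were Spp1 (1.18), Timp1 (1.27), an inhibitor of metalloproteinases, and Loxl2 (1.43). The Tnc ratios rest on sham levels near the array's floor, and the sham spot of day 5 was not found. The distances for Tnc therefore depend on that floor, and the order of these genes is not resolved. Cthrc1 has no such list, since its ratios are bounds. Among the 5 tested genes the closest pair was Postn and Fn1, at 0.76. These are descriptions over 5 ratios that share the same 10 arrays.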

How the data were processed

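Total RNA of 10 left-ventricle samples was hybridised to 1-colour arrays (Mouse Whole Genome OneArray v2, Cy5), scanned and read with GenePix 4.1 by the authors. The deposited values are raw intensity per probe with background already subtracted, a detection p-value, and a flag. How that p-value was computed and what the flag means are not given in the sources used here, and the flag was read as marking spots that were not found. The deposited p-value decided no call. Of the probes, 3633 have no symbol and were left out of gene counts.

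Following the study's methods, arrays were scaled to a common median, any probe under 1 on some array was dropped, and quantile normalization used the median at every rank, before log2. That last step was run over all 10 arrays together, whereas the methods describe it per condition, and normalization within each operation was an alternative. A gene with several probes was represented by the one whose absolute log2 ratios summed highest. TAB and sham of a day were paired, as in the study's ratios: deviations of same-day samples from their group means correlated at 0.113, -0.0165, 0.00650, 0.00292 and 0.0140 on days 3, 5, 7, 14 and 28. Tests used limma 3.58.1 (R 4.3.3; lmFit, eBayes) in which day was a block, and p-values were adjusted by Benjamini-Hochberg over all tested genes (threshold 0.05). The comparison of sham samples was fitted over 4 groups without the block. The tests were checked on simulated data.

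Named genes are the 6 genes, the 3 highest and 2 lowest of each list among genes found on all arrays, and the 3 nearest genes of each; other genes named were chosen after their values were seen. The 6 genes, the lists and the tests were chosen with earlier results of these data known. The number of arrays limits the precision.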

Additional observations from a re-analysis of the deposited data

How the results depend on the processing

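The early minus late ratio of Sparc (-0.18) was 0.034 without day 3 and 0.16 without day 14. The sham early minus late differences changed sign for Spp1 (0.03, with -0.10 without day 5 and -0.11 without day 28) and for Tnc (0.003, with a lowest value of -0.51 without day 14). With all days, 2749 genes passed the average TAB test. It was 3598 with no replicate block, 4469 with 50 added, 677 with probes below 1 set to 1, and 22 to 2753 when a day was left out (947 without day 14). For the early against late ratio, 0 passed, against 10 with 50 added, 7 without the lowest tertile of genes by intensity and 5 with no replicate block, and 0 without any 1 day. For sham early against late, 0 passed, against 5 with 50 added, 4 without the lowest tertile of genes by intensity and 0 to 172 when a day was left out (172 without day 14). The mean log2 ratio of Cthrc1, a bound of 7.47, was 4.66 with 50 added. Of 132 counts of called genes per list, 80 were within 1.5 times the main count, with 1, 2 and 1 of 12 without days 3, 5 and 7, 6 of 12 without day 14 and 4 of 12 with probes below 1 set to 1. The causes were not tested. Intensity near the array's floor limits the sham values of Tnc, Spp1, Fn1 and Cthrc1, and the TAB values of Tnc on days 14 and 28 and of Spp1 and Cthrc1 on day 28.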
